A study of Mus musculus with 4 samples.

Results

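The 44 genes described here encode parts of epithelial tight junctions and desmosomes, together with the adhesion molecule Epcam, epithelial splicing factors, membrane proteases with their inhibitors, and a connexin. They were chosen by function, with earlier results of these data known, and matched by symbol. Each of the 44 symbols was found once among the 24771 features of the expression table, of which 22036 were Ensembl genes. Their expression was compared between SG placodes derived from mouse embryonic stem cells and mouse embryonic submandibular glands (E12.5 SMGs), to ask how far the aggregates expressed the contact apparatus of the embryonic gland.

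Tight junctions seal the space between neighbouring epithelial cells. Claudins form the sealing strands and set which ions pass, MARVEL proteins such as occludin organise the strands and the corners where 3 cells meet, and plaque proteins such as ZO-1 tie them to actin. Desmosomes are the spot-like contacts that bind cells mechanically, with cadherins outside, plakoglobin and plakophilins beneath the membrane, and desmoplakin as the link to keratin filaments. In the embryonic SMG both contacts hold together the buds and cords of the epithelium, which lie in mesenchyme.

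Each group had 2 samples. The placodes, labelled as induced embryonic salivary glands, were aggregates of 1 mouse embryonic stem cell line (129w2 in the methods of the study) seeded at 3000 cells per well, kept in 2% Matrigel from the day after seeding, given 2 ng/ml BMP4 on day 3, 25 ng/ml bFGF with 1 µM retinoic acid on day 4 and 200 ng/ml FGF10 from day 6, and collected on day 10. The E12.5 SMGs came from mice of a strain not given in the sources used here, and the labels call the samples of both groups untreated. The labels do not say whether the samples of a group came from separate cultures or litters, so p-values measure the spread between these samples, which may be technical. Values are deposited FPKM, a fragment count scaled by transcript length and library size, whose depth is unknown. In these bulk samples, fewer cells of a type and less RNA per cell cannot be told apart.

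The summed FPKM of a sample lay between 361963 and 384773, with 12636 to 12807 features at 1 FPKM or more. Of 10 epithelial markers, 5 reached 1 FPKM in each placode sample and 10 in each SMG sample, and their summed FPKM was 73.5 and 79.5 in the placodes and 316 and 283 in the SMGs. Both placode samples lay below both SMG samples for 7 of these markers and above them for 2, Krt18 and Krt19. Krt5, Krt14 and Krt15, keratins of basal epithelial cells, were listed at 0 in the placodes. Krt8, a keratin of simple epithelia, was at 34.4 and 35.6 FPKM there and at 36.1 and 28.3 in the SMGs. Krt19 was at 14.7 and 15.8 FPKM in the placodes and 9.78 and 6.53 in the SMGs. Krt18 averaged 22.7 against 17.7 FPKM. In the limma test described below Krt19 was higher in the placodes (adjusted p = 0.00363) and Krt18 did not pass (adjusted p = 0.0541). Markers of neural progenitors summed to 600 and 635 FPKM in the placodes and 44.5 and 40.1 in the SMGs, with 6 and 2 of 6 detected, and neuronal markers to 840 and 869 against 84.1 and 75.6, with 6 of 6 detected in both. Mesenchymal markers summed to 107 and 105 FPKM in the placodes and 929 and 915 in the SMGs, with 5 and 6 of 6 detected. Endothelial markers, which matter here because endothelium has tight junctions of its own, summed to 9.75 and 9.32 against 118 and 124, with 1 (Cdh5) and 6 of 6 detected. Red blood cell markers summed to 0.0258 and 0.255 FPKM in the placodes and 2168 and 2073 in the SMGs, and skeletal muscle markers to 0.721 and 0.650 against 50.3 and 37.1. Markers of Schwann and neural crest cells summed to 8.64 and 7.43 FPKM against 41.5 and 38.4. Those of endoderm summed to 2.09 and 2.54 FPKM in the placodes and 5.51 and 4.72 in the SMGs. In the SMGs most of this came from Sox17, at 4.67 and 4.55 FPKM there and 0.318 and 0.254 in the placodes. In the placodes most came from Foxa2, at 1.32 and 1.98 FPKM there and 0.0296 and 0 in the SMGs. Pluripotency markers summed to 22.2 and 21.4 FPKM in the placodes and 0.261 and 0.419 in the SMGs, most of it from Esrrb at 19.95 and 19.56 FPKM in the placodes. The part of these cell populations in the results was not tested.

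Most of the junction genes were expressed at a lower level in the placodes than in the E12.5 SMGs, by 37.3-fold for Epcam and 24.3-fold for Perp in mean FPKM. A few went the other way: Jam2 was 17.1-fold and Pkp2 22.2-fold higher in the placodes. At 1 FPKM or more in both samples, 20 of the 44 genes were detected in the placodes and 39 in the SMGs. Both placode samples lay below both SMG samples for 37 of the 44 genes, against 41.4% of all features above 0 in any sample, and above them for 5, against 35.8%. The groups overlapped for Cldn9 and Cldn23.

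Of the 44 genes, 37 averaged 1 FPKM or more across the 4 samples and were tested on log2(FPKM + 1) with limma. Among them 34 passed an adjusted p of 0.05 in either direction, which 76.2% of all 13193 tested features did. Of these 30 were lower in the placodes, a call that 40.4% of all tested features received, and 4 were higher, against 35.7%. With a fold of at least 2 added, 27 passed, against 29.4%, of which 25 were lower, against 15.2% of all tested features, and 2 were higher, against 14.1%. The median log2 fold change of the 37 genes was −1.61, and −2.44 with a pseudocount of 0.01, and that of all tested features was −0.05. A gene near 0 in the placodes could enter the test through the SMGs alone, and 16 of the 37 had a placode mean below 1 FPKM. Of the 20 genes with a mean of 1 FPKM or more in both groups, 14 were lower, against 39.1% of the 11475 features of that kind, and 3 were higher, against 34.2%. At 2-fold or more 11 of these were lower, against 11.4%, and 1 was higher, against 10.5%. The median log2 difference between the replicates of a group was 0.093 in the placodes and 0.106 in the SMGs for the 37 genes, and 0.083 and 0.086 for all tested features. The 7 genes below the minimum were Cldn2, Cldn9, Cldn10, Ocln, Marveld3, Dsg3 and Ppl, and their values are given without a test.

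**Figure D1:**
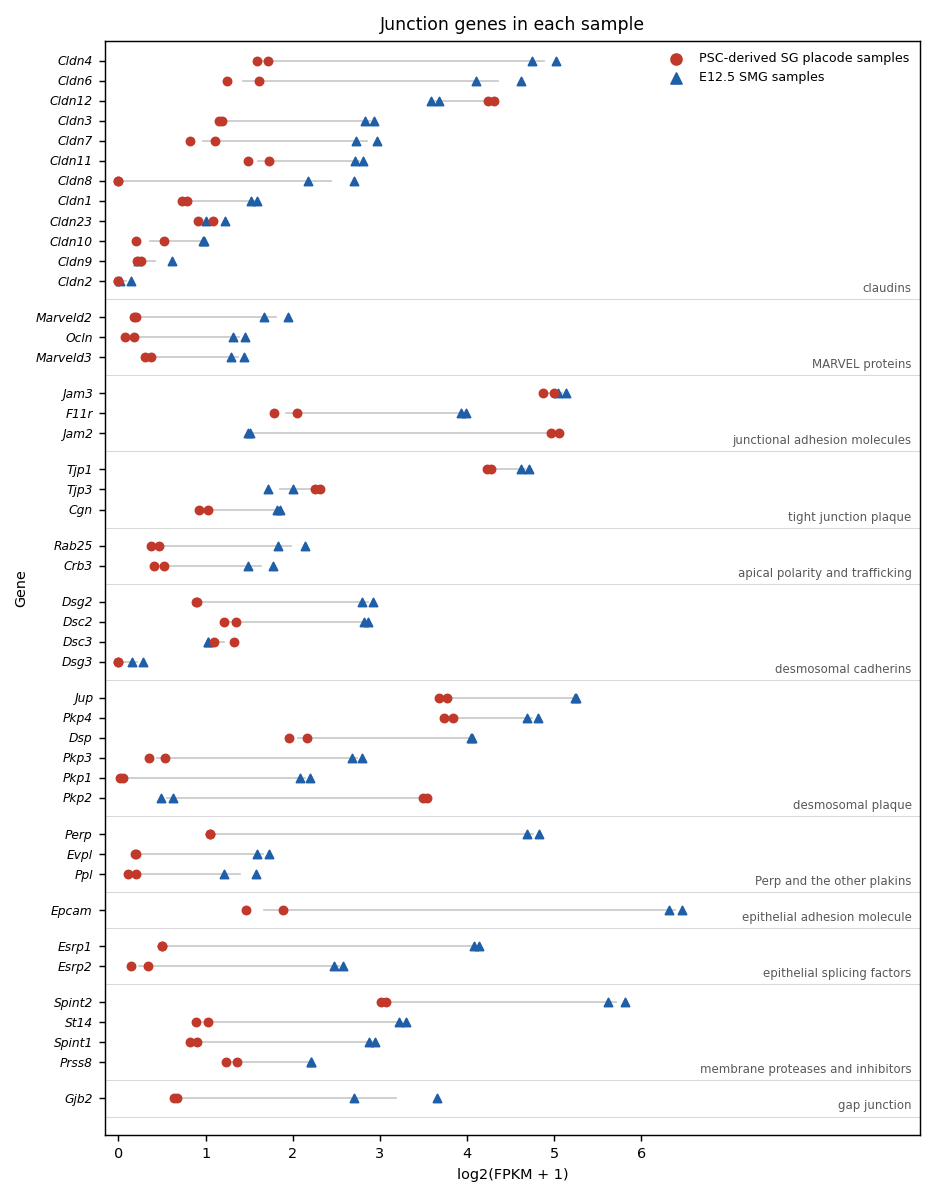
Expression of the 44 genes in each sample, as log2(FPKM + 1) on the horizontal axis, with genes in rows grouped by role. Circles are the 2 placode samples, triangles the 2 SMG samples and grey lines join the group means. Circles lie left of triangles for 37 genes and right of them for 5, of which Jam2 and Pkp2 stand farthest apart.

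Epcam, a surface adhesion molecule of epithelial cells that binds and stabilises claudin-7, had the lowest log2 fold change of the tested genes. It was at 1.75 and 2.69 FPKM in the placodes and at 87.2 and 78.8 FPKM in the SMGs. The log2 fold change was −4.72 (SE 0.14, adjusted p = 1.02e-06). Among Ensembl genes its mean FPKM stood at percentile 50.4 in the placodes and 97.2 in the SMGs. The gene lies on chromosome 17 of GRCm38, at 17:87635979-87651129 on the plus strand. Its promoter window, 250 bases before to 50 bases after the transcript start in RefSeq on GRCm38.p6, spans chr17:87635729-87636028 on the plus strand and is shown because Epcam had the lowest log2 fold change. Capitals mark the E2-box CAGGTG, which reads CACCTG on the opposite strand and is a site of Snail and ZEB repressors and of E proteins, and also ACCGGT, the core of the grainyhead-like site, which is its own reverse complement.
Epcam: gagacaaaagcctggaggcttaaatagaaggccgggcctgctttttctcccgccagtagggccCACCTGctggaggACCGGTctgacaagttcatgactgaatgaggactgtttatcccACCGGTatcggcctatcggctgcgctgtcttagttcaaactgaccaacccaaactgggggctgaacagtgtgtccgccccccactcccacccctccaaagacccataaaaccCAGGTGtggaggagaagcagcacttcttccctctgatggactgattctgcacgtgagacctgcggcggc
The window held 2 E2-boxes, starting at −187 and −19, and 2 ACCGGT matches, starting at −174 and −131, counted from the transcript start.

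The claudins differed in direction and in order between the groups. Of the 12 claudins, 9 were tested, and 7 were lower in the placodes, 6 of them at least 2-fold, 1 was higher and 1 did not pass. Among all tested features 40.4% were called lower and 35.7% higher, and 15.2% and 14.1% at 2-fold or more. The counts of this family and of those below are small and are read against these shares. Cldn4, a barrier claudin common in ducts and glands, was at 2.27 and 2.02 FPKM in the placodes and 31.3 and 25.9 in the SMGs (log2 fold change −3.23, SE 0.11, adjusted p = 1.72e-06). Cldn6, a claudin of embryonic epithelia, was at 2.06 and 1.38 FPKM against 23.5 and 16.1 (log2 fold change −2.92, SE 0.20, adjusted p = 2.92e-05). In mean FPKM the SMGs exceeded the placodes by 13.3-fold for Cldn4 and 11.5-fold for Cldn6, and neither pair of groups overlapped. Cldn12 went the other way, with 18.8 and 17.9 FPKM in the placodes and 11.798 and 11.003 in the SMGs (log2 fold change 0.64, SE 0.07, adjusted p = 0.000215), which is 1.61-fold in mean FPKM. Cldn12 lacks the C-terminal motif by which most claudins bind ZO proteins.

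Cldn4 and Cldn6 are shown with their promoter windows, since they had the lowest log2 fold changes of the 9 tested among these 12 claudins. The Cldn4 window is chr5:134946885-134947184 on the minus strand and that of Cldn6 is chr17:23679115-23679414 on the plus strand, both on GRCm38.p6, with the E2-boxes in capitals.
Cldn4: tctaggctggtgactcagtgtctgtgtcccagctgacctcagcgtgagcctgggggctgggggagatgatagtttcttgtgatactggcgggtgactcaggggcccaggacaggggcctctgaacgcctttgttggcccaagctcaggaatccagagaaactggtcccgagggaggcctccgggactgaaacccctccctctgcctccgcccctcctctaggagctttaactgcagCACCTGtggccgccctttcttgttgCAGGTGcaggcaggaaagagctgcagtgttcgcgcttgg
Cldn6: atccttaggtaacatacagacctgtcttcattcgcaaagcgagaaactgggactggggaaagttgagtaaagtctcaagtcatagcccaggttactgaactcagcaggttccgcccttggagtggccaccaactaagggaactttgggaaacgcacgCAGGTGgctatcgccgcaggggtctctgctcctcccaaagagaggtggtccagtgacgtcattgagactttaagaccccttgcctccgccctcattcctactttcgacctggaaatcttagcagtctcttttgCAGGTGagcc
The E2-boxes started at −14 and 11 in Cldn4 and at −93 and 40 in Cldn6, and ACCGGT was in neither window.

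Among the other claudins, Cldn8, which is typical of the distal ducts of kidney and gland, was listed at 0 in each placode sample and was at 5.53 and 3.51 FPKM in the SMGs (adjusted p = 5.08e-05). Cldn7, the partner of Epcam, was at 1.16 and 0.770 FPKM in the placodes and 6.82 and 5.64 in the SMGs (log2 fold change −1.88, adjusted p = 4.96e-05). Cldn3 was at 1.28 and 1.22 against 6.64 and 6.12 FPKM (log2 fold change −1.71, adjusted p = 1.55e-05). It lies 39.3 kb from Cldn4 on chromosome 5, and the adjacent pair of barrier claudins was lower in the placodes together. Cldn11, best known from myelin and the testis, was at 1.79 and 2.30 FPKM in the placodes and 6.00 and 5.55 in the SMGs (log2 fold change −1.16, adjusted p = 0.000188). Cldn1, the claudin of the epidermal barrier, was at 0.723 and 0.652 against 1.87 and 2.02 FPKM (log2 fold change −0.80, adjusted p = 0.000763). Its difference was below 2-fold on this scale. Cldn23 was at 1.12 and 0.879 FPKM in the placodes and 1.33 and 1.01 in the SMGs, so the groups overlapped (log2 fold change −0.12, adjusted p = 0.464). The 3 claudins not tested were all low. Cldn10 was at 0.152 and 0.435 FPKM in the placodes and 0.958 and 0.972 in the SMGs. Cldn2, a claudin of leaky epithelia, was listed at 0 in each placode sample and at 0.107 and 0.0141 FPKM in the SMGs. Cldn9 was at 0.162 and 0.199 FPKM in the placodes and 0.536 and 0.171 in the SMGs. It lies 137 bases from Cldn6 on chromosome 17 and is a close paralogue of it, so the split of reads between them is uncertain.

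The make-up of the claudin family differed accordingly. The 12 claudins summed to 29.5 and 27.8 FPKM in the placodes and 96.4 and 78.0 in the SMGs. Cldn12 held 63.7% and 64.5% of this sum in the placodes and 12.2% and 14.1% in the SMGs. Cldn4 held 7.69% and 7.27% in the placodes and 32.5% and 33.2% in the SMGs, and Cldn6 6.97% and 4.96% against 24.4% and 20.7%. Among these 12 genes the largest share was that of Cldn12 in both placode samples and of Cldn4 in both SMG samples. With every listed claudin and claudin-domain gene in the sum, Cldnd1, a claudin-domain gene outside the 12, held the largest share in both groups, with 49.5% and 50.6% in the placodes and 23.1% and 27.2% in the SMGs. On that sum the mean shares were 27.8% for Cldn12 in the placodes and 20.5% for Cldn4 in the SMGs.

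**Figure D2:**
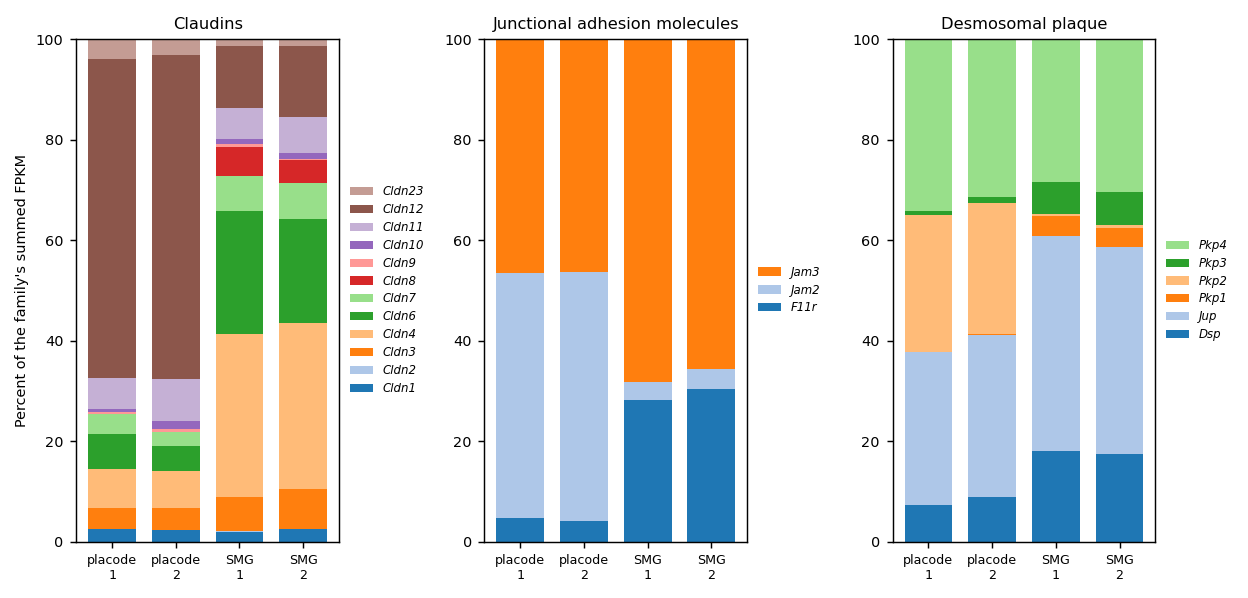
Make-up of 3 families in each sample, as the percent of the family's summed FPKM (vertical axis, 0 to 100) held by each gene. Stacked bars stand for the 12 claudins, the 3 junctional adhesion molecules and the 6 desmosomal plaque genes in the 2 placode and 2 SMG samples. Cldn12, Jam2 and Pkp2 take larger shares in the placode samples, and Cldn4, Cldn6 and F11r in the SMG samples.

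The MARVEL proteins were low in the placodes. Marveld2, tricellulin, which seals the corners between cells, was at 0.131 and 0.154 FPKM in the placodes and 2.85 and 2.17 in the SMGs (log2 fold change −1.61, SE 0.14, adjusted p = 7.83e-05). Ocln, occludin, was at 0.0565 and 0.135 FPKM in the placodes and 1.739 and 1.497 in the SMGs, and Marveld3 at 0.292 and 0.232 against 1.72 and 1.44. Neither reached the minimum for testing, though the groups did not overlap for either. With no minimum of mean FPKM 3 of the 3 were called lower, as were 6358 of all 20464 features tested that way. Ocln and Marveld2 lie 43.2 kb apart on chromosome 13 with no coding gene between them.

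The 3 junctional adhesion molecules, immunoglobulin-type proteins of tight junctions and other contacts, moved in different directions. F11r (JAM-A), the member found at epithelial tight junctions, was at 3.15 and 2.46 FPKM in the placodes and 14.2 and 14.9 in the SMGs (log2 fold change −2.03, SE 0.11, adjusted p = 1.11e-05). Jam2 (JAM-B), known from endothelium and the nervous system, was at 32.2 and 30.2 FPKM in the placodes and 1.80 and 1.86 in the SMGs (log2 fold change 3.51, SE 0.08, adjusted p = 4.02e-07). Endothelial markers were lower in the placodes and neural markers higher, as given above, and the part of either population in the Jam2 values was not tested. Jam2 lies at 16:84774123-84825928 on the plus strand. Jam3 (JAM-C), a binding partner of Jam2, was at 30.8 and 28.2 FPKM in the placodes and 34.2 and 32.0 in the SMGs. Its log2 fold change of −0.16 (SE 0.07) did not pass the test (adjusted p = 0.0628), although the groups did not overlap, and the adjusted p was 0.0358 after quantile normalization and 0.0401 with the replicate number as a block. An unnamed gene model on the opposite strand covers 36.2% of the exon bases of Jam3, and whether reads were counted by strand is not given in the sources used here. The family sum was 66.2 and 60.8 FPKM in the placodes and 50.2 and 48.7 in the SMGs, of which Jam2 held 48.7% and 49.6% against 3.59% and 3.81%, and F11r 4.76% and 4.04% against 28.3% and 30.5%.

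Of the 3 plaque genes of the tight junction 2 were lower and 1 was higher in the placodes, and none reached a fold of 2 on the log2(FPKM + 1) scale. These genes are too few to set apart from the 40.4% lower and 35.7% higher among all tested features. Tjp1 encodes ZO-1, a scaffold that also sits at adherens junctions of neural progenitors and other cells. It was at 18.3 and 17.8 FPKM in the placodes and 25.2 and 23.6 in the SMGs (log2 fold change −0.42, SE 0.06, adjusted p = 0.0009). Cgn, cingulin, a plaque protein of epithelial tight junctions, was at 0.901 and 1.05 FPKM in the placodes and 2.62 and 2.54 in the SMGs (log2 fold change −0.86, SE 0.11, adjusted p = 0.000512). Tjp3, which encodes ZO-3, was at 3.77 and 3.96 FPKM in the placodes and 3.00 and 2.27 in the SMGs, and was higher in the placodes (log2 fold change 0.43, SE 0.13, adjusted p = 0.0212). This call was lost without placode replicate 1 (adjusted p = 0.105), placode replicate 2 (0.135) or SMG replicate 2 (0.0838), and with no minimum of mean FPKM (0.0505). Tjp3 shares 40 exon bases with Apba3 on the opposite strand, which was at 13.4 and 13.7 FPKM in the placodes and 22.1 and 20.3 in the SMGs.

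Both genes of apical polarity and trafficking were lower in the placodes, each by 2-fold or more. Rab25, a small GTPase of apical recycling endosomes, was at 0.296 and 0.378 FPKM in the placodes and 3.39 and 2.55 in the SMGs (log2 fold change −1.56, SE 0.14, adjusted p = 0.000107). Crb3, the Crumbs protein of epithelial apical membranes, was at 0.436 and 0.328 FPKM in the placodes and 1.80 and 2.42 in the SMGs (log2 fold change −1.17, SE 0.14, adjusted p = 0.000406).

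In the desmosome, 2 of the 4 cadherins were lower in the placodes, both at least 2-fold, against 40.4% and 15.2% of all tested features. Dsg2, the desmoglein of simple and early epithelia, was at 0.847 and 0.872 FPKM in the placodes and 6.59 and 5.93 in the SMGs (log2 fold change −1.96, SE 0.10, adjusted p = 1.04e-05). Its usual partner Dsc2 was at 1.54 and 1.31 FPKM against 6.30 and 6.05 (log2 fold change −1.56, SE 0.10, adjusted p = 2.59e-05). The pair of basal and stratified epithelia, Dsc3 and Dsg3, was low in both groups. Dsc3 was at 1.14 and 1.52 FPKM in the placodes and 1.04 and 1.03 in the SMGs (log2 fold change 0.19, SE 0.13, adjusted p = 0.224). Dsg3 was listed at 0 in each placode sample and was at 0.218 and 0.111 FPKM in the SMGs. The 4 genes lie on chromosome 18, where Dsc3 and Dsc2 are 28.3 kb apart and Dsg3 and Dsg2 10.6 kb apart.

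Of the 6 desmosomal plaque genes, 5 were lower in the placodes, 4 of them at least 2-fold, and Pkp2 was higher. Among all tested features 40.4% were lower, 15.2% at least 2-fold, and 35.7% were higher. Dsp, desmoplakin, without which desmosomes do not hold keratin, was at 2.87 and 3.49 FPKM in the placodes and 15.6 and 15.5 in the SMGs (log2 fold change −1.99, SE 0.10, adjusted p = 7.27e-06). Jup, plakoglobin, which also serves adherens junctions, was at 11.8 and 12.6 FPKM against 37.2 and 36.8 (log2 fold change −1.52, SE 0.06, adjusted p = 2.71e-06). The groups lay apart for both genes by far more than their replicates. The 4 plakophilins, armadillo proteins that cluster desmosomal cadherins, did not move together. Pkp3, found in most epithelia, was at 0.277 and 0.443 FPKM in the placodes and 5.39 and 5.91 in the SMGs (log2 fold change −2.29, SE 0.12, adjusted p = 9.23e-06). Pkp1, typical of stratified epithelia, was at 0.0109 and 0.0387 FPKM against 3.57 and 3.25 (log2 fold change −2.11, adjusted p = 1.09e-05). The ratio of its mean FPKM was 137-fold, the largest among those of the 44 genes above 0 in both groups, and rests on placode values near 0. Pkp4 (p0071), which also binds classical cadherins, was at 13.3 and 12.3 FPKM against 24.7 and 27.1 (log2 fold change −0.96, adjusted p = 4.81e-05). Pkp2, the plakophilin of heart muscle and simple epithelia, was at 10.7 and 10.3 FPKM in the placodes and 0.4001 and 0.5429 in the SMGs (log2 fold change 2.96, SE 0.10, adjusted p = 1.93e-06). It lies at 16:16213318-16272712 on the plus strand, and among the 37 tested genes it was the one with an SMG mean below 1 FPKM. Pkp2 held 27.4% and 26.2% of the summed plaque FPKM in the placodes and 0.46% and 0.61% in the SMGs. Dsp and Dsg2, whose products bind or accompany Pkp2 in desmosomes, were lower in the same samples.

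Perp, a tetraspan membrane protein of desmosomes and a target of p53 and p63, was at 1.07 and 1.07 FPKM in the placodes and 27.3 and 24.8 in the SMGs (log2 fold change −3.70, SE 0.09, adjusted p = 4.89e-07). The gene lies at 10:18845020-18857073 on the plus strand. Trp63, which encodes p63, was at 0.0287 and 0.0262 FPKM in the placodes and 13.6 and 13.2 in the SMGs. Its part in the Perp values was not tested. Evpl, envoplakin, a plakin of the cornified envelope, was at 0.144 and 0.152 FPKM against 2.00 and 2.30 (log2 fold change −1.45, SE 0.12, adjusted p = 6.45e-05). Its partner Ppl, periplakin, was at 0.147 and 0.0781 against 1.97 and 1.32 FPKM and was not tested.

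**Figure D3:**
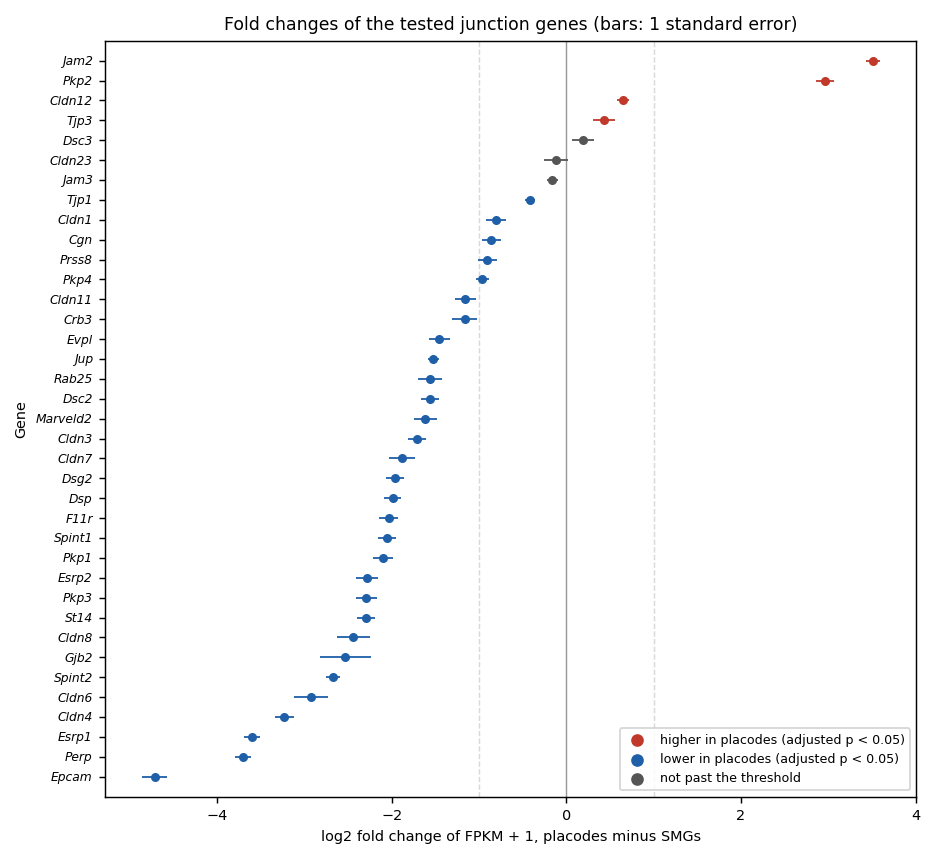
Log2 fold change of FPKM + 1, placodes minus SMGs (horizontal axis), of the 37 tested genes in rows, with bars of 1 standard error. Colours mark 4 genes higher in the placodes, 30 lower and 3 past no threshold, and dashed lines a fold of 2. Jam2 and Pkp2 lie right of the right dashed line and Epcam lies farthest left. The value of Cldn8, which was listed at 0 in the placodes, depends on the pseudocount.

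Both epithelial splicing regulatory proteins, which set the epithelial exon choice of genes such as Fgfr2, Cd44 and Ctnnd1, were lower in the placodes. Esrp1 was at 0.418 and 0.411 FPKM in the placodes and 16.6 and 15.9 in the SMGs (log2 fold change −3.61, SE 0.09, adjusted p = 6.09e-07). That is 39.1-fold in mean FPKM, a larger ratio than that of Epcam, as was the ratio of Pkp1, though the placode means of both were below 1 FPKM. Esrp2 was at 0.103 and 0.266 FPKM against 4.57 and 4.95 (log2 fold change −2.28, SE 0.12, adjusted p = 1.06e-05). It shares 5.05% of its exon bases with Nfatc3 on the opposite strand, which was at 10.6 and 10.0 FPKM in the placodes and 19.99 and 19.71 in the SMGs.

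The 4 genes of the matriptase system were lower in the placodes, 3 of them at least 2-fold, against 40.4% and 15.2% of all tested features. Matriptase, encoded by St14, is a surface serine protease of epithelia, prostasin (Prss8) acts with it, and the Kunitz inhibitors HAI-1 (Spint1) and HAI-2 (Spint2) hold both in check. Spint2 was at 7.37 and 7.08 FPKM in the placodes and 55.3 and 47.9 in the SMGs (log2 fold change −2.67, SE 0.08, adjusted p = 1.07e-06). St14 was at 0.853 and 1.04 FPKM against 8.82 and 8.31 (log2 fold change −2.30, SE 0.10, adjusted p = 5.33e-06). Protease and inhibitor were thus lower together. Spint1 was at 0.764 and 0.865 FPKM in the placodes and 6.69 and 6.35 in the SMGs (log2 fold change −2.05, adjusted p = 7.68e-06), and Prss8 at 1.36 and 1.58 against 3.61 and 3.62 (log2 fold change −0.91, adjusted p = 0.00035). Prss8 shares 6.59% of its exon bases with Kat8 on the opposite strand, which was at 18.5 and 17.9 FPKM in the placodes and 15.4 and 14.5 in the SMGs. The promoter window of Spint2, shown because Spint2 came next in log2 fold change among the genes with a window, is chr7:29281928-29282227 on the minus strand of GRCm38.p6, with the E2-boxes in capitals.
Spint2: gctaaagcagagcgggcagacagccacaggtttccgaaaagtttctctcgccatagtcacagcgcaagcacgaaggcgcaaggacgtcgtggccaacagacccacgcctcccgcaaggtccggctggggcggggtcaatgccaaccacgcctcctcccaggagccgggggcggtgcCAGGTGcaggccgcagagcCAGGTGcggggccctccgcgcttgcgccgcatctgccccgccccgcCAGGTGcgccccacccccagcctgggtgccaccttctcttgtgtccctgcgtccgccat
The 3 E2-boxes started at −74, −55 and −9.

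Gjb2, connexin 26 of epithelial gap junctions, was at 0.589 and 0.554 FPKM in the placodes and 11.6 and 5.53 in the SMGs (log2 fold change −2.53, SE 0.29, adjusted p = 0.000324). Its SMG samples differed by 2.11-fold from each other, the widest replicate gap of the tested genes on the log2(FPKM + 1) scale, yet both lay above the placode samples.

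The differences were also set against Cdh1, E-cadherin, which marks the epithelium as such and was at 1.11 and 1.18 FPKM in the placodes and 28.2 and 24.7 in the SMGs. Its log2 fold change was −3.68. Of the 37 tested genes, Epcam and Perp had a lower log2 fold change than Cdh1, and Esrp1 lay 0.07 above it. The count was 6 against Grhl2, an epithelial transcription factor at 0.275 and 0.368 FPKM in the placodes and 7.49 and 7.21 in the SMGs (log2 fold change −2.66). Against Krt8, whose log2 fold change was 0.13, it was 32. It also changed with the pseudocount, to 5 at 0.1 and 6 at 0.01. Most of the tested genes thus lay above Cdh1 and below Krt8 in log2 fold change, a description of these samples without a test. With 1 FPKM added, a gene of low SMG level cannot fall as far as Cdh1 even at 0 in the placodes. Cldn8, listed at 0 there, had a log2 fold change of −2.44. For such genes, which were most of those tested, the place above Cdh1 was fixed by the SMG level. No conclusion is drawn from it or from the number of genes below Cdh1.

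Of 86 other features of the same structures, listed by function and also with earlier results of these data known, 54 were tested. In the placodes 21 of them were higher (38.9%) and 23 lower (42.6%), near the 35.7% and 40.4% of all tested features, and the median log2 fold change was −0.02. At 2-fold or more 15 were higher (27.8%) and 16 lower (29.6%), against 14.1% and 15.2% of all tested features. The counts of the single lists below are small and are read against the same shares of all tested features. Among 13 tested tight junction genes outside the list above, 5 were higher and 6 lower. Ildr2, an angulin-type protein of tricellular contacts, was at 7.18 and 7.75 FPKM in the placodes and 0.229 and 0.113 in the SMGs (log2 fold change 2.85, adjusted p = 3.06e-06), and Amot, a partner of plaque and Hippo proteins, at 5.07 and 5.42 against 65.9 and 54.8 (log2 fold change −3.29, adjusted p = 9.25e-07). Of the 16 other claudins and claudin-domain genes 3 were tested. Cldn5, the claudin of endothelium, was at 0.385 and 0.156 FPKM in the placodes and 15.6 and 14.1 in the SMGs (log2 fold change −3.64, adjusted p = 1.79e-06), beside endothelial markers that were lower as well. The part of endothelium in the Cldn5 values was not tested. Cldn34c1 was higher (log2 fold change 0.70, adjusted p = 0.00116), and Cldnd1 did not pass (adjusted p = 0.218).

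Of 11 further polarity genes, all tested, 6 were higher and 4 lower, against 35.7% and 40.4% of all tested features. Crb2, the Crumbs protein of neural epithelia, was at 5.07 and 6.11 FPKM in the placodes and 0.122 and 0.110 in the SMGs (log2 fold change 2.56, adjusted p = 6.8e-06), opposite in direction to Crb3. Patj, a scaffold of the Crumbs complex, was at 0.437 and 0.686 FPKM against 5.88 and 5.75 (log2 fold change −2.13, adjusted p = 1.32e-05). Among 6 catenins and relatives 3 were higher and 2 lower. Ctnna2, the neural α-catenin, was at 30.2 and 33.2 FPKM in the placodes and 1.70 and 1.40 in the SMGs (log2 fold change 3.68, adjusted p = 6.62e-07), while Ctnna1, the epithelial one, was lower (log2 fold change −0.75, adjusted p = 6.91e-05). Neural markers were higher in the placodes, as given above, and their part in these values was not tested. Ctnnb1, β-catenin, was at 357 and 372 FPKM against 374 and 370 and did not pass (adjusted p = 0.641).

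Of 9 other splicing regulators 5 were higher and 3 lower, against 35.7% and 40.4% of all tested features. Rbfox3 of neurons was at 22.0 and 23.4 FPKM in the placodes and 0.263 and 0.176 in the SMGs (log2 fold change 4.28, adjusted p = 4.36e-07). Ptbp1 was at 57.0 and 52.4 FPKM against 177 and 174 (log2 fold change −1.67, adjusted p = 1.6e-06). Of 11 other connexins 6 were tested and 4 were lower, with the lowest value for Gja5, an arterial connexin (log2 fold change −3.11, adjusted p = 1.5e-06). Rab11a, a relative of Rab25 in most cells, was higher (log2 fold change 0.42, adjusted p = 0.0011). The protease Hpn was the 1 tested of 7 further protease genes and was lower (log2 fold change −2.19, adjusted p = 2.07e-05). Pnn was the 1 tested of 6 further desmosome genes. It was lower by a small margin (log2 fold change −0.23, adjusted p = 0.0132), a call lost without either placode replicate and without SMG replicate 1.

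**Figure D4:**
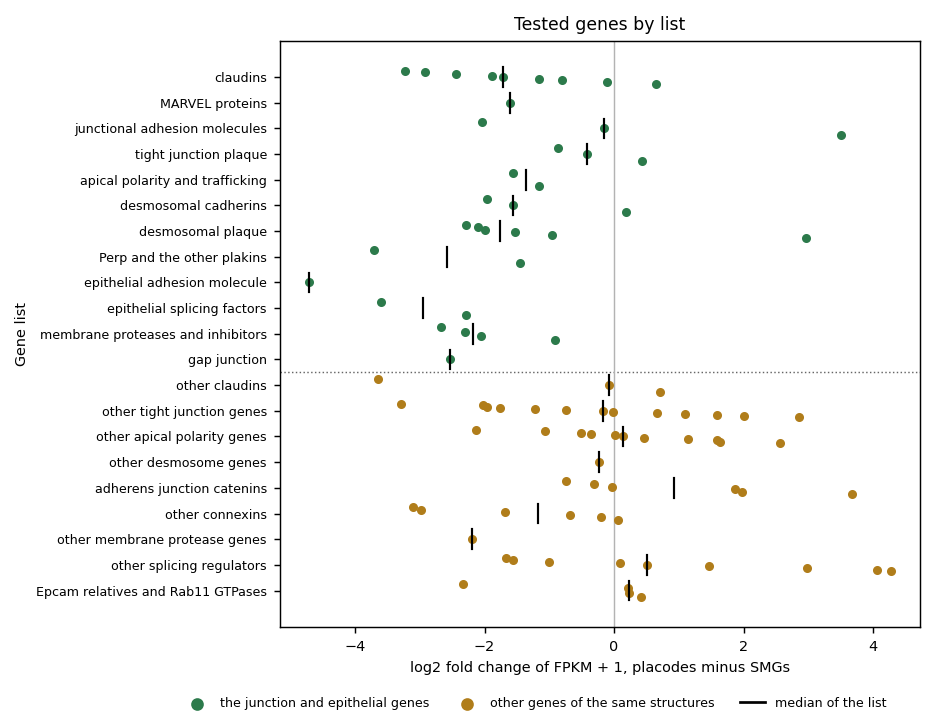
Log2 fold change of FPKM + 1, placodes minus SMGs (horizontal axis), of every tested gene by list in rows. Green points are the 37 junction and epithelial genes, yellow points 54 other genes of the same structures, and black ticks list medians. Every green list has its median left of 0, though claudins, junctional adhesion molecules and both plaque lists each also hold a gene called higher, and the medians were −0.02 for the yellow and −1.61 for the green genes as a whole.

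The promoter windows printed above can be read against those of the other genes. RefSeq windows of 300 bases were held for 24 of the 44 genes, 33 windows in all, and not for Jam2 or Pkp2. The E2-box, in either orientation, was present in 15 of the 24 genes (62.5%), compared with 22.6% of 27025 genes with a window, 20.4% of the 9928 tested genes with one and 19.7% of the 5021 tested genes whose GC content lay within the middle range of the junction genes. Of the 15 genes with a window that lay 2-fold or more below the SMGs, 12 held it. The share among all features that were 2-fold lower was not computed, so no conclusion is drawn from this count. The E2-box was found in Cldn3, Cldn4, Cldn6, Cldn7, Crb3, Dsp, Epcam, F11r, Gjb2, Marveld2, Ocln, Pkp4, Rab25, Spint2 and Tjp3, of which Tjp3 was higher in the placodes. Counting a site in overlapping windows of a gene once, there were 27 E2-boxes, and 9 genes had 2 or more. ACCGGT was present in Epcam and Spint1, 8.33% of the 24 genes, compared with 2.68% of all genes and 4.10% of tested genes. The GC-box GGGCGG was present in 21 of the 24 (87.5%), compared with 38.2% and 71.0%, and TATAAA in Cldn2 and Marveld2 (8.33%), compared with 15.7% and 8.27%. Of the same 15 lower genes, 14 held the GC-box, 2 ACCGGT and 1 TATAAA. The median GC content of the windows was 61.0% for the junction genes, 61.3% for tested genes and 52.7% for all genes. No test was made of these shares, and a match describes the letters in the window and nothing more.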

How the data were processed

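RNA-seq of 2 placode and 2 E12.5 SMG samples was used, grouped by the sample labels. Libraries were made from total RNA with a NEBNext Ultra kit. The authors deposited FPKM values of each feature in each sample in 1 table. The submitters' processing notes name HISAT2 and the builds GRCm38 and GRCh38. The annotation, the FPKM program and strand counting are not given in the sources used here. The values showed no steps of whole reads, so depth is unknown and no counting interval is given.

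The genes and lists were chosen with earlier results of these data known. With limma 3.58.1 in R 4.3.3 (eBayes with trend, no term but group, two-sided tests), log2(FPKM + 1) was compared for the 13193 features that averaged 1 FPKM or more across the 4 samples, with Benjamini-Hochberg adjustment over all of them. Called means an adjusted p below 0.05, and 2-fold a log2 fold change of 1 or more in size. An exact permutation test of 2 against 2 samples cannot go below 0.333 and was not used. Fold changes on this scale understate ratios of low values. Ratios quoted as folds in mean FPKM are ratios of group means.

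Full statistics were given for the highest and lowest genes of each group by level and by log2 fold change, and for most others. Of the other genes of the same structures, the called gene with the highest and with the lowest log2 fold change of each list was named, except for 1 gene not reported here, and Ctnna1, Ctnnb1 and Cldnd1 were added after their values were seen. Positions came from GENCODE M21 (GRCm38), in which 44 of 44 genes matched by identifier and symbol, and promoter sequences from RefSeq (GRCm38.p6), with motifs searched on both strands and bases counted from the transcript start. Promoters were printed for the genes with the lowest log2 fold changes that had a window. Of 9 genes that share exon bases with a gene on the other strand, Cldn3, Jam3, Tjp3, Crb3, Dsg2, Dsp, Esrp1, Esrp2 and Prss8, reads of both strands cannot be told apart if strand was not counted.

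The fit was tested on simulated data. Figures were drawn with Python 3.11.15. Alternatives were other pseudocounts, scalings, minimums, detection levels and reference genes, the replicate block, other eBayes settings and each sample left out. Rescaling without mitochondrial and hemoglobin genes was chosen after seeing the data.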

Additional observations from a re-analysis of the deposited data

How the results depend on the processing

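Of the 37 tested genes, 35 kept their direction and their side of the threshold under every alternative that tested them, and none reversed. The exceptions were Tjp3 and Jam3, given above. With a minimum mean FPKM of 5 fewer genes were tested, with a median log2 fold change of −1.99. Of these 11 were called lower, 9 of them at least 2-fold, and 3 higher, 2 of them at least 2-fold. Of the 9679 features tested there, 3866 were called lower, 1219 of them at least 2-fold, and 3594 higher, 1256 of them at least 2-fold. For all 37 tested genes the median was −2.34 at a pseudocount of 0.1, −2.44 at 0.01 and −2.18 after scaling to an equal sum per sample. At a detection level of 0.1 FPKM, 38 genes were detected in the placodes, and at 5 FPKM 8 in the placodes and 22 in the SMGs. The number of genes below the reference was 32 for Krt8, 6 for Grhl2, and for Cdh1 5 and 6 at pseudocounts of 0.1 and 0.01. With all listed claudins in the sum, Cldn12 held 27.8% in the placodes and Cldn4 20.5% in the SMGs, both less than Cldnd1. Without 1 replicate at a time, the median log2 fold change of the tested genes ran from −1.75 to −1.54, and that of all tested features from −0.06 to −0.04. The samples share replicate numbers, and same-numbered deviations correlated at −0.0348 across features. This 1 correlation cannot decide whether the numbers pair the samples. With the replicate number as a block, 4 genes were called higher and 31 lower, 2 and 25 at least 2-fold, with a median of −1.61. Of all 13193 features tested with this block, 4702 were called higher and 5341 lower, 1871 and 2017 at least 2-fold. Leaving 1 sample in a group assumes that it varies like the other group. With 2 samples a group and an unknown depth, levels below 1 FPKM cannot be ranked.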
